A study of Mus musculus with 8 samples.

Results

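Potassium channel genes were followed through RNA-seq of neonatal mouse brain. Every gene whose symbol is Kcn, 1 or more further letters and a number was taken, with Kcnq1 and Kcnk9 left out, which gave 90 of the 32285 genes in the count table. The symbol alone chose them, though earlier results of these data were known when the choice was made. Among them were 17 pore subunits of the voltage-gated families Kv1 to Kv4, 10 silent Kv subunits, 4 Kv7 subunits and 8 subunits of the EAG, ERG and ELK families. The others were 11 auxiliary subunits, 12 genes of calcium- and sodium-activated channels, 15 inward rectifiers and 13 channels with a pair of pore domains per subunit (K2P).

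The study set 4 ICSI-F2 libraries against 4 control libraries, all from C57BL/6 mice. In ICSI, intracytoplasmic sperm injection, a sperm is placed directly into the egg. The ICSI-F2 neonates were males sired by ICSI-born fathers that had mated naturally. Control brains were neonatal, from natural matings between wild-type parents, and the labels state no sex for them. No transgene, deletion or drug is named for either group. The sample codes also carry a letter that lies inside 1 group, namely G (ICSI-F2 replicates 3 and 4), F (ICSI-F2 replicates 1 and 2), A (control replicates 1 and 2) or D (control replicates 3 and 4). The sources used here do not define the letter. The labels do not say that each library came from its own animal or litter, so a p-value here measures the spread between libraries, which may be technical.

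Potassium channels let potassium leave or enter a cell along its gradient and so set the resting voltage and end each action potential. Voltage-gated members open on depolarisation, calcium- and sodium-activated members follow the ions that enter during firing, inward rectifiers hold the voltage near rest and take up potassium in glia, and K2P channels carry background leak. In the developing brain several of these families come on gradually as neurons mature.

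Library totals lay between 12968175 and 16551511 counts, and 15565 genes passed the filter on low counts. Neuron markers summed to 4970 to 5023 CPM (counts per 1000000 counts of a library) in the ICSI-F2 libraries and 5068 to 5141 CPM in control libraries. Of the 6 neuron markers 5 lay below control and 1 above, with none called. Libraries stood apart in the sums of some marker lists, which were chosen with earlier results of these data known. Of the caudal neural tube markers 2 of 6 passed the filter, and of the liver markers 0 of 4. Caudal neural tube markers summed to 0.683 to 7.62 CPM in ICSI-F2 libraries, to 79.2 and 44.9 CPM in the control libraries of letter A and to 1.13 and 2.02 CPM in those of letter D. Liver markers summed to 15.3 and 28.9 CPM in the ICSI-F2 libraries of letter G and to no more than 0.978 CPM in any of the other 6 libraries. Blood markers summed to 15.99 to 17.06 CPM in ICSI-F2 libraries and 9.07 to 13.6 CPM in control libraries, with 3 of 3 tested above control and none called. Meningeal markers summed to 561 and 549 CPM in letter G, against 420 and 418 CPM in letter F and 394 to 427 CPM in control libraries. Between ICSI-F2 and control brains all 8 meningeal markers lay above control, with none called. The part of these tissues in the channel genes' values was not tested. The comparison of ICSI-F2 with control brains was also made without letter A and without letter G.

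Of the 90 potassium channel genes, 88 had at least 1 count and 76 passed the filter and were tested. On average over the 8 libraries, 50 reached 10 CPM or more, 23 lay between 1 and 10 CPM and 17 lay under 1 CPM. At 100 CPM or more were 9 genes, among them Kcnma1, Kcnq3, Kcnd2, Kcnc1, Kcnd3, Kcnk10 and Kcnh7. Levels of different genes were set beside each other as CPM per kb of exon, since longer transcripts collect more reads. On that scale Kcnd2 was highest at 23.8 CPM per kb, and Kcna6 at 15.7, Kcna3 at 13.8 and Kcnma1 at 13.03 were among the genes that followed. The highest tested gene stood 101-fold above the lowest, Kcng4. Within a gene the 8 libraries lay close together. Among the 50 genes at 10 CPM or more, the highest library exceeded the lowest by a factor of 1.07 (Kcnma1) to 1.45 (Kcnj6), with a median of 1.23.

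The balance of the channel classes was near the same in both groups. Kv1 to Kv4 pore subunits summed to 130.5 ± 4.56 CPM per kb in ICSI-F2 brains and 132.5 ± 3.66 in control brains (SD, n = 4 libraries each). These were 33.7% and 33.9% of the channel total. Calcium- and sodium-activated channels summed to 45.7 ± 1.31 CPM per kb in ICSI-F2 brains and 46.5 ± 1.37 in control brains. The Kv7 sums were 44.3 ± 0.364 CPM per kb in ICSI-F2 brains and 44.9 ± 0.856 in control brains, and those of the inward rectifiers 38.4 ± 1.73 in ICSI-F2 brains and 38.5 ± 2.30 in control brains. K2P channels summed to 37.7 ± 1.58 CPM per kb in ICSI-F2 brains and 38.2 ± 1.13 in control brains. For auxiliary subunits the sums were 35.3 ± 0.809 CPM per kb in ICSI-F2 brains and 36.0 ± 1.09 in control brains, and for the EAG, ERG and ELK families 33.7 ± 1.201 in ICSI-F2 brains and 33.0 ± 1.01 in control brains. Silent Kv subunits summed to 21.2 ± 1.17 CPM per kb in ICSI-F2 brains and 21.2 ± 0.435 in control brains. All classes together came to 386.8 ± 7.12 CPM per kb in ICSI-F2 brains and 390.7 ± 8.31 in control brains. In each class the means differed by less than the SD of at least 1 group.

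No potassium channel gene was called different in ICSI-F2 against control brains by edgeR's quasi-likelihood test, at a Benjamini-Hochberg adjusted p of 0.05 over all 15565 tested genes. By the same rule 0.00642% of all genes were called higher in ICSI-F2 brains and 0.0% lower. DESeq2 and limma-voom also called 0 of the 76. The smallest adjusted p among them in edgeR was 0.65. At an unadjusted p of 0.05, 0 of 76 channel genes were higher, against 3.93% of all genes, and 3 (3.95%) were lower, against 3.37% of all genes. The 3 were Kcnk13, Kcnq3 and Kcnmb4. In 64 of the 76 the whole 95% interval of the fold change lay within 1.5-fold of no change, a bound that 83.8% of all genes met. Because brain pieces were measured in bulk, fewer cells of a type and less RNA per cell cannot be told apart in any of these values.

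The fitted fold change was above 0 in 30 channel genes and below 0 in 46, while 50.4% of all genes were above 0. Its median was -0.02 on the log2 scale over the channel genes and 0.00065 over all genes. Leaving out libraries moved the split both ways. It was 36 above and 40 below without letter A and 37 above and 39 below without control replicate 1, and it was 29 above and 47 below without letter G and 28 above and 48 below without ICSI-F2 replicate 3. No channel gene had all 4 ICSI-F2 libraries above all 4 control libraries, as 1.97% of all genes did. Only Kcnk13 and Kcns1 had all 4 below, 2.63% of the tested channel genes against 2.0% of all genes.

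The Kv1 family, whose pore subunits shape firing near threshold in axons and terminals, lies mostly in a pair of gene clusters. Kcna3, Kcna2 and Kcna10 follow each other on the plus strand of chromosome 3, and Kcna5, Kcna1 and Kcna6 lie on the minus strand of chromosome 6 (mm10, GENCODE M21). On chromosome 3, Kcna3 at chr3:107036169-107038070 averaged 13.8 CPM per kb over the 8 libraries and Kcna2 at chr3:107101146-107115005 averaged 5.29, while Kcna10 at chr3:107183056-107195721 had 0 counts in all 8. A count of 0 among 116979059 allows a level of up to 0.0256 CPM, with counting error only. On chromosome 6, Kcna6 at chr6:126708329-126740674 averaged 15.7 CPM per kb and Kcna1 at chr6:126640397-126646384 averaged 1.58, close to Kcna5 at chr6:126532551-126535412, which averaged 1.34.

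Stretches before the RefSeq starts of 5 of these genes are shown to set sequence beside level. They come from the RefSeq promoter table on GRCm38.p6, read 5′ to 3′ on the gene's strand, from the 250 bases before the RefSeq start and without bases that GENCODE M21 places in an exon of the gene. For Kcna2 the GENCODE start lies before the RefSeq one, so its stretch lies inside the GENCODE gene, outside its exons. Capitals mark every CG.
Kcna3: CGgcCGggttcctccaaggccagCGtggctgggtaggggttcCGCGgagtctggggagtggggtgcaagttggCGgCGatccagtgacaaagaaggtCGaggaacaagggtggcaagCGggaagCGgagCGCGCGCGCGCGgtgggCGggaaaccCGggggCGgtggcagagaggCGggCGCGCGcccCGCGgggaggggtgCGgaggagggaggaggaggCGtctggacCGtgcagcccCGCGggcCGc
Kcna2: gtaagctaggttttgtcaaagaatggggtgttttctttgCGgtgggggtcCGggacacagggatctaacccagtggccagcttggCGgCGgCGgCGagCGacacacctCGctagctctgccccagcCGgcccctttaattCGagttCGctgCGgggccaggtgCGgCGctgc
Kcna10: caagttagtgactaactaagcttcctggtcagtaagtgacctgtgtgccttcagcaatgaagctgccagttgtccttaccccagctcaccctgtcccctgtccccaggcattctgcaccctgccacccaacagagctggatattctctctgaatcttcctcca
Kcna5: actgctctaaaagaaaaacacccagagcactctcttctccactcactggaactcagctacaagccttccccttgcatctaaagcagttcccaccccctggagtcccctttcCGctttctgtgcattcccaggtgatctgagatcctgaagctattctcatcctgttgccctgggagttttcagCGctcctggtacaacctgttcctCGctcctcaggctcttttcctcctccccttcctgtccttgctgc
Kcna6: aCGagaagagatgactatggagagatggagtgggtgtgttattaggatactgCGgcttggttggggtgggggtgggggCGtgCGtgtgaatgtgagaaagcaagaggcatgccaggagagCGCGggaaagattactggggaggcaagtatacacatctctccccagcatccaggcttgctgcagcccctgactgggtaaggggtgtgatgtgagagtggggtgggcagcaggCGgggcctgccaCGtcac
They lie at chr3:107035912-107036161, chr3:107101395-107101566 and chr3:107182893-107183055 on the plus strand and at chr6:126535556-126535805 and chr6:126740675-126740924 on the minus strand. In the full 250 bases Kcna3 holds 31 CG dinucleotides, and 5.19% of the 32851 promoters in the table hold at least as many. Kcna2 holds 18, a number that 21.7% of promoters reach, and Kcna6 holds 8, which 43.0% reach. Kcna5 holds 3 and Kcna10, the gene at 0 counts, holds 0, against a median of 6 over all promoters. These counts describe the letters of the windows and were not tested against expression.

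None of the 15 tested Kv1 to Kv4 genes was called between ICSI-F2 and control brains. Above control lay 4 and below it 11, between -0.20 and 0.14 on the log2 scale, and all 15 intervals stayed within 1.5-fold. Kcnd2, a pore subunit of the fast inactivating A-type current of dendrites, had 113.5, 112, 127 and 129 CPM in the ICSI-F2 libraries and 125, 127, 123 and 124 CPM in the control libraries. The control values fell inside the ICSI-F2 range, and the log2 fold change was -0.05 (95% interval -0.14 to 0.03). Kcnc1, a Kv3 subunit of fast-spiking neurons, averaged 123 ± 3.72 CPM in ICSI-F2 brains and 122 ± 8.77 CPM in control brains.

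Kcna4, the A-type member of the Kv1 family, had 33.7, 30.4, 32.0 and 36.1 CPM in the ICSI-F2 libraries and 33.4, 30.45, 28.5 and 27.6 CPM in the control libraries. Its groups overlapped, and the log2 fold change was 0.14 ± 0.07 (SE), with an adjusted p of 0.69 in edgeR. Kcna2 averaged 62.0 ± 7.90 CPM in ICSI-F2 brains and 63.9 ± 7.23 CPM in control brains, a difference well inside either SD. Kcna1 averaged 7.05 ± 0.796 CPM in ICSI-F2 brains and 8.09 ± 0.913 CPM in control brains (log2 fold change -0.20, adjusted p 0.745, edgeR). Kcna6 averaged 91.8 ± 2.99 CPM in ICSI-F2 brains and 94.45 ± 4.18 CPM in control brains. Of its 5945 exon bases, 2355 lie over Gm26673 on the opposite strand, so its level is uncertain.

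**Figure D1:**
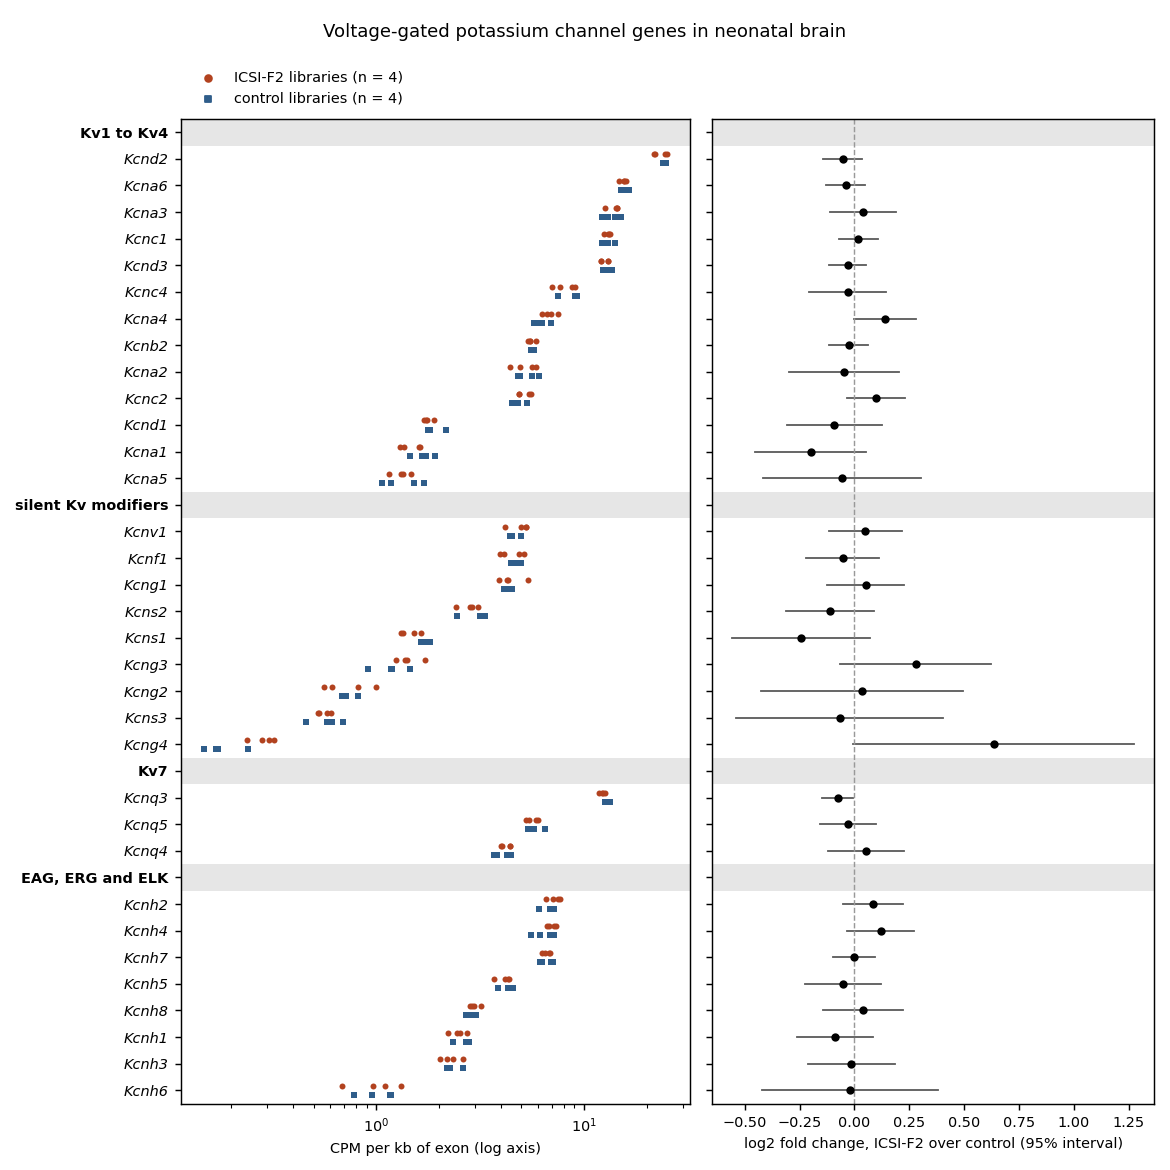
On the left, the level of each tested voltage-gated subunit in every library, as CPM per kb of exon on a log axis, with ICSI-F2 circles above control squares; on the right, the log2 fold change of ICSI-F2 over control with its 95% interval from edgeR, for the genes reported here. Of these genes, Kcns1 is the one whose groups do not overlap, and Kcnd2 stands highest at 23.8 CPM per kb over the 8 libraries.

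Silent Kv subunits form no channel alone and change the gating of Kv2 channels when they join them. Of the 10, 9 were tested, 5 above control and 4 below, with none called and 7 intervals within 1.5-fold. Kcnv1, Kcnf1 and Kcng1 were the highest of them per kb, at 4.81, 4.59 and 4.38 CPM per kb over the 8 libraries. Kcng4, the lowest tested gene per kb, had 1.16, 1.23, 1.07 and 0.911 CPM in the ICSI-F2 libraries and 0.917, 0.662, 0.566 and 0.649 CPM in the control libraries. Control replicate 1 alone reached the ICSI-F2 range, and the fitted difference was 0.64 on the log2 scale (SE 0.31, 95% interval -0.01 to 1.28, adjusted p 0.687, edgeR). Kcng3 stood at 4.82 ± 0.659 CPM in ICSI-F2 brains and 3.99 ± 0.756 CPM in control brains (log2 fold change 0.28, adjusted p 0.735, edgeR). That fold change was 0.17 without control replicate 1 and 0.11 without letter A. Kcns1, named after its values were seen because its groups do not overlap, had 4.45, 4.14, 3.67 and 3.57 CPM in the ICSI-F2 libraries and 4.46, 4.63, 4.84 and 4.91 CPM in the control libraries. The nearest libraries of the 2 groups differed by less than 1% of the level, and its adjusted p was 0.748 in edgeR.

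Kv7 subunits carry the M-current, a slow potassium current that restrains repetitive firing. All 4 were tested, 2 above control and 2 below, with none called and all 4 intervals within 1.5-fold. Kcnq3, at chr15:65986387-66286642, had 173, 185, 182.5 and 179 CPM in the ICSI-F2 libraries and 189, 197, 188 and 185 CPM in the control libraries. ICSI-F2 replicate 2 just exceeded the lowest control library, and the other 3 lay below all control libraries. The fitted difference was -0.08 on the log2 scale (SE 0.03, 95% interval -0.15 to -0.01), which did not pass adjustment over all genes (adjusted p 0.658, edgeR). Kcnq5, another neuronal member, averaged 43.3 ± 2.76 CPM in ICSI-F2 brains and 44.3 ± 3.81 CPM in control brains.

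The EAG, ERG and ELK families are voltage-gated channels with slow or unusual gating, and Kcnh2 is the gene behind the cardiac hERG current. All 8 were tested, 3 above control and 5 below, and all 8 intervals stayed within 1.5-fold. Kcnh7, an ERG channel of neurons, averaged 101 ± 3.96 CPM in ICSI-F2 brains and 101 ± 6.98 CPM in control brains. Kcnh2 averaged 34.9 ± 2.37 CPM in ICSI-F2 brains and 32.95 ± 2.55 CPM in control brains, and Kcnh4 27.6 ± 1.23 CPM in ICSI-F2 brains and 25.4 ± 2.81 CPM in control brains. Kcnh1, the founding EAG member, averaged 18.2 ± 1.59 CPM in ICSI-F2 brains and 19.3 ± 1.51 CPM in control brains.

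Auxiliary subunits bind pore subunits and set their traffic and speed. The Kcnip genes encode calcium-binding partners of Kv4 channels, the Kcnab genes cytoplasmic beta subunits of Kv1 channels and the Kcne genes small proteins with a single membrane span. Of 11, 9 were tested, 4 above control and 5 below, with none called and 7 intervals within 1.5-fold. Kcnab2 had 32.9, 31.8, 33.4 and 33.5 CPM in the ICSI-F2 libraries and 37.2, 35.8, 31.7 and 37.2 CPM in the control libraries. Control replicate 3 lay below every ICSI-F2 library and the other 3 control libraries lay above them, with a log2 fold change of -0.11 (SE 0.06, adjusted p 0.729, edgeR). Kcnip1 averaged 38.0 ± 1.57 CPM in ICSI-F2 brains and 39.6 ± 1.10 CPM in control brains, and Kcnip3 25.2 ± 1.87 CPM in ICSI-F2 brains and 25.8 ± 1.77 CPM in control brains. Kcnip4 stood at 15.2 ± 1.40 CPM in ICSI-F2 brains and 13.9 ± 0.845 CPM in control brains (log2 fold change 0.14, adjusted p 0.775, edgeR).

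Calcium- and sodium-activated channels bring potassium current in after calcium or sodium has entered the cell. Kcnma1, the pore of the large-conductance BK channel, was the steadiest of the well-expressed genes, with 213, 226.5, 214 and 227.5 CPM in the ICSI-F2 libraries and 226, 220.2, 220.2 and 222 CPM in the control libraries. Its control values lay inside the ICSI-F2 range, and the log2 fold change was -0.01 (95% interval -0.08 to 0.06). Kcnmb4, the BK beta subunit of neurons, had 19.4, 17.2, 15.8 and 17.9 CPM in the ICSI-F2 libraries and 20.5, 20.1, 20.6 and 18.04 CPM in the control libraries. ICSI-F2 replicate 1 alone lay inside the control range. The log2 fold change was -0.17 (SE 0.08), with an adjusted p of 0.666 in edgeR, and 693 of its 3324 exon bases lie over Kcnmb4os2 on the other strand. Kcnt2, a sodium-activated channel, stood at 25.3 ± 1.67 CPM in ICSI-F2 brains and 23.1 ± 2.38 CPM in control brains (log2 fold change 0.13, adjusted p 0.734, edgeR). Its relative Kcnt1 averaged 56.8 ± 3.397 CPM in ICSI-F2 brains and 57.1 ± 3.10 CPM in control brains. Kcnn2, a small-conductance calcium-activated channel, averaged 36.5 ± 2.67 CPM in ICSI-F2 brains and 37.7 ± 2.90 CPM in control brains. Kcnu1, known as a sperm channel in the mouse, was counted in every library, at 3.93 ± 0.403 CPM in ICSI-F2 brains and 3.81 ± 0.5999 CPM in control brains.

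Among the inward rectifiers, Kcnj3, Kcnj5, Kcnj6 and Kcnj9 form the channels opened by G proteins, Kcnj8 and Kcnj11 the ATP-sensitive pores, and Kcnj10 and Kcnj16 the glial channel that takes up potassium. Of 15, 13 were tested, 5 above control and 8 below, with none called and 9 intervals within 1.5-fold. Kcnj3 averaged 41.5 ± 2.90 CPM in ICSI-F2 brains and 42.4 ± 2.26 CPM in control brains, though 1621 of its 5215 exon bases lie over Gm26794 on the opposite strand. Kcnj10 averaged 28.5 ± 1.35 CPM in ICSI-F2 brains and 29.5 ± 3.11 CPM in control brains. Its partner Kcnj16 had 2.86, 2.68, 3.37 and 3.95 CPM in the ICSI-F2 libraries and 5.07, 4.10, 3.46 and 3.18 CPM in the control libraries. The letter A libraries were highest, and the log2 fold change of -0.31 (SE 0.19, adjusted p 0.739, edgeR) was -0.05 without letter A and -0.51 without letter G, the ends of its range over 15 other settings. All 6 astrocyte markers also lay below control, with none called, and their sums were 604 to 707 CPM in ICSI-F2 libraries, 852 and 765 CPM in letter A and 656 and 696 CPM in letter D. Their part in the Kcnj16 values was not tested.

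Kcnj11 had 17.4, 17.7, 19.5 and 17.8 CPM in the ICSI-F2 libraries and 18.9, 15.0, 14.5 and 16.7 CPM in the control libraries. Control replicate 1 lay inside the ICSI-F2 range and the other 3 below it, with a log2 fold change of 0.15 (SE 0.09, adjusted p 0.734, edgeR) that ranged from 0.09 without control replicate 3 to 0.23 without control replicate 1. Kcnj5 stood at 3.81 ± 0.632 CPM in ICSI-F2 brains and 3.04 ± 0.670 CPM in control brains (log2 fold change 0.32, adjusted p 0.735, edgeR). That fold change was 0.17 without control replicate 2 and 0.14 without letter A. Kcnj2, a strong rectifier that holds the resting voltage, averaged 20.9 ± 2.03 CPM in ICSI-F2 brains and 21.1 ± 2.73 CPM in control brains. Kcnj8, marked in brain by vessel-wall cells, averaged 5.38 ± 0.962 CPM in ICSI-F2 brains and 5.63 ± 1.21 CPM in control brains.

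K2P channels carry leak current that is open at rest. Of 13, 9 were tested, 4 above control and 5 below, with none called and 5 intervals within 1.5-fold. Kcnk10 and Kcnk2, channels opened by stretch and lipids, averaged 103 ± 4.06 and 50.7 ± 3.03 CPM in ICSI-F2 brains and 104 ± 2.69 and 51.5 ± 3.85 CPM in control brains. Kcnk1 averaged 18.5 ± 0.871 CPM in ICSI-F2 brains and 18.1 ± 1.202 CPM in control brains, and the acid-sensitive Kcnk3 15.9 ± 1.23 CPM in ICSI-F2 brains and 17.04 ± 0.898 CPM in control brains. The smallest p of all channel genes belonged to Kcnk13, at chr12:99964499-100062682, a leak channel known in brain from microglia. It had 1.52, 1.38, 1.45 and 1.44 CPM in the ICSI-F2 libraries and 2.44, 2.25, 2.01 and 1.66 CPM in the control libraries. All 4 ICSI-F2 libraries lay below all 4 control libraries. Counts were few, at 25, 18, 19 and 19 in the ICSI-F2 libraries and 40, 34, 32 and 23 in the control libraries. The fitted difference was -0.53 on the log2 scale (SE 0.23, 95% interval -1.01 to -0.05), which did not pass adjustment (adjusted p 0.650, edgeR). It ranged from -0.62 to -0.34 over 15 other settings and was called in 0 of them. Of 6 microglia markers 5 lay above control, with none called and sums of 57.2 to 67.6 CPM in ICSI-F2 libraries and 55.7 to 61.7 CPM in control libraries. Their part in the Kcnk13 values was not tested.

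**Figure D2:**
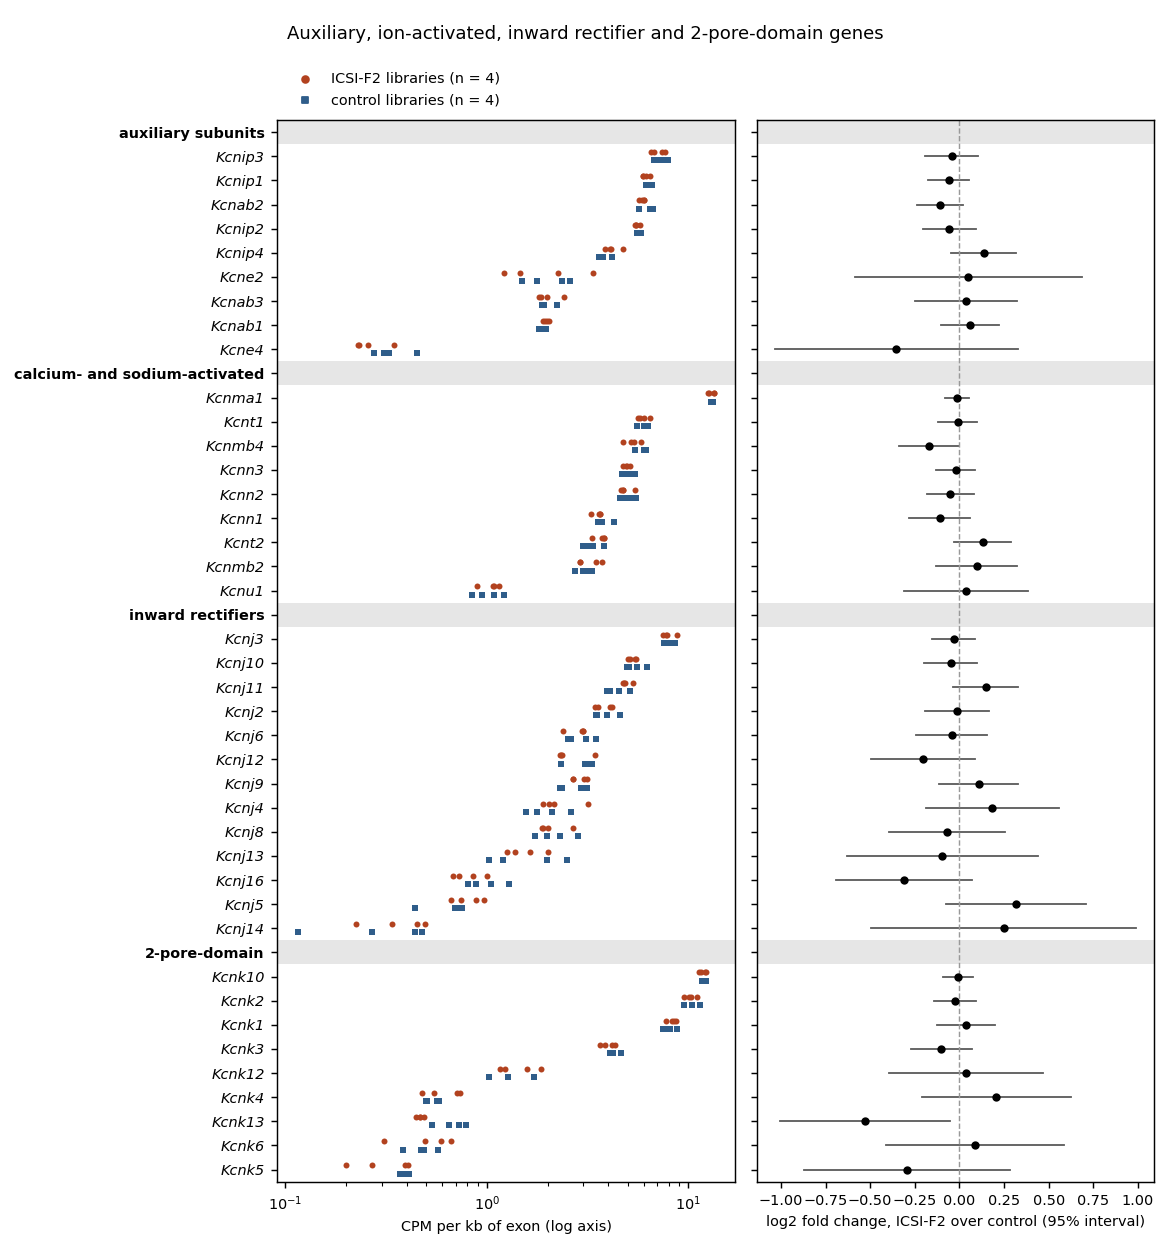
The same pair of panels for tested auxiliary subunits, ion-activated channels, inward rectifiers and K2P channels, with CPM per kb of exon on a log axis at left and the log2 fold change of ICSI-F2 over control with its 95% interval at right. Kcnma1 and Kcnk10 stand highest at 13.03 and 11.8 CPM per kb, and Kcnk13 is a low gene whose 4 ICSI-F2 points lie below its 4 control points.

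The filter left out 14 channel genes. Kcna7 and Kcna10 had 0 counts in all 8 libraries. Kcnj15 had 59 counts over the 8 libraries, Kcnn4 had 49, Kcnmb1 had 22, Kcne3 had 21, Kcnv2 had 14 and Kcne1 had 7. Kcnk7, Kcnk15, Kcnk16, Kcnk18, Kcnmb3 and Kcnj1, the last of these a kidney channel, had 1 count each. Those with at least 1 count entered a group comparison only in the fit without that filter, and their values there are not given.

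Other genes that carry or support potassium currents, such as the sodium-potassium pump that builds the gradient and the HCN channels that oppose it at rest, were followed as a list of 30. Between ICSI-F2 and control brains 27 were tested, 6 above control and 21 below, while 50.4% of all genes were above. With 0 called, their median log2 fold change was -0.03, against 0.00065 over all genes. The list summed to 6065 and 6004 CPM in letter A, 5662 and 5884 CPM in letter D and 5567 to 5823 CPM in ICSI-F2 libraries.

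Libraries of different letters were also compared inside each group, in a fit of the 4 letters. Among control libraries, letter A against letter D gave edgeR calls for 0.7% of all genes higher and 0.257% lower, and 1 channel gene, Kcna2, was called higher while 0 were called lower. At an unadjusted p of 0.05, 7 of 76 channel genes were higher in letter A, against 6.14% of all genes, and 3 lower, against 4.95%. Kcna2, an axonal Kv1 subunit, had 72.5 and 67.2 CPM in letter A and 58.3 and 57.6 CPM in letter D. Both letter A libraries lay above both letter D libraries, by 0.27 on the log2 scale (SE 0.07, 95% interval 0.13 to 0.41, adjusted p 0.0404, edgeR). The call was lost with DESeq2 (adjusted p 0.228), with total library size for scaling (0.0543, edgeR) and without ICSI-F2 replicate 3 (0.0524) or control replicate 1 (0.524), 3 (0.278) or 4 (0.184). Each letter has 2 libraries, so leaving one out leaves a lone library that is assumed to vary like the others.

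Among ICSI-F2 libraries, letter G against letter F gave calls for 0.206% of all genes higher and 0.0578% lower, and 0 channel genes were called by edgeR, and 0 by DESeq2 or limma-voom, in either direction. At an unadjusted p of 0.05, 6 were higher in letter G, against 3.69% of all genes, and 2 lower, against 3.17%. Kcna2 had 69.9 and 67.1 CPM in letter G and 58.4 and 52.7 CPM in letter F. Its log2 fold change of 0.30 (SE 0.07, 95% interval 0.16 to 0.44) had an adjusted p of 0.0554 in edgeR, and it was called with no filter on low counts (0.00877), with only the 4 ICSI-F2 libraries in the fit (0.0349), and without control replicate 1 (0.0444) or 2 (0.0437). The 8 values of Kcna2 thus fell into a higher and a lower set within each group. Letters G and A lay between 67.1 and 72.5 CPM, and letters F and D between 52.7 and 58.4 CPM. Such a split inside each group was not particular to Kcna2. Kcnd2, Kcnj3 and Kcnj16 also had letter G wholly above letter F and letter A wholly above letter D. In Kcnd2 the nearest libraries of letters A and D were 124.6 and 124.2 CPM. The share of all genes that split this way was not counted, so no pattern of the channel genes can be read from it. Caudal neural tube markers, high in letter A, were at 4.82 and 0.683 CPM in letter G and 7.62 and 2.53 CPM in letter F. The part of tissue content in the Kcna2 values was not tested.

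Kcne2, at chr16:92292389-92298129, is a small subunit known from the choroid plexus, the epithelium that makes cerebrospinal fluid. It had 2.14 and 2.58 CPM in letter G and 5.97 and 3.99 CPM in letter F, and 2.65 to 4.55 CPM in the control libraries. Both letter G libraries lay below every other library. Letter G differed from letter F by -1.09 on the log2 scale (SE 0.28, 95% interval -1.66 to -0.52, adjusted p 0.119, edgeR). It was called with no filter (0.00841), with only the 4 libraries in the fit (0.0461) and without ICSI-F2 replicate 2 (0.0272). Kcnj13, another channel of that epithelium, had 1.76 and 1.59 CPM in letter G and 2.56 and 2.07 CPM in letter F (log2 fold change -0.47, adjusted p 0.881, edgeR), with 623 of its 1270 exon bases over Gigyf2 on the other strand. Choroid plexus markers summed to 362 and 347 CPM in letter G and 494.5 and 357 CPM in letter F, with 2 of 6 above letter F, 4 below and none called. Their part in the Kcne2 values was not tested.

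Other channel genes were not called between letters, except Kcnj6 in letter A against D when no filter on low counts was used. Kcnj6, a pore of the channel opened by G proteins, had 26.5 and 23.7 CPM in letter A and 19.4 and 20.1 CPM in letter D (log2 fold change 0.35, adjusted p 0.120, edgeR). Kcnj9, its partner in that channel, had 10.1 and 9.93 CPM in letter A and 12.5 and 13.4 CPM in letter D (log2 fold change -0.37, adjusted p 0.229, edgeR). So 1 gene of the pair lay above letter D and the other below. The largest log2 fold changes upward in letter A were 0.47 for Kcnj16, 0.44 for Kcnh6, 0.39 for Kcng4 and 0.36 for Kcnu1, and the largest downward after Kcnj9 were -0.36 for Kcnj5, -0.34 for Kcng3 and -0.33 for Kcns3. Over 13 other settings those of Kcng4 ranged from 0.13 to 0.59, of Kcnj5 from -0.74 to -0.08, of Kcng3 from -0.54 to -0.16 and of Kcns3 from -0.51 to -0.18, and none was called. Kcnj10 lay at 0.23 (adjusted p 0.275, edgeR) and its partner Kcnj16 at 0.47 (0.441). In letter G against letter F, Kcnj10 lay at -0.002 and Kcnj16 at 0.39. Of 6 astrocyte markers 2 were called higher in letter A, Aqp4 at 0.74 and Agt at 0.67, against 0.7% of all genes. All 6 lay above letter D, and the part of astrocyte content in the Kcnj10 and Kcnj16 values was not tested. In letter G the values furthest up were 0.44 for Kcnj4, 0.40 for Kcnk6, 0.39 for Kcnj16 and 0.38 for Kcne4, and furthest down after Kcne2 were -0.76 for Kcnk5, -0.75 for Kcnj14 and -0.47 for Kcnj13. Over the other settings Kcnj4 ranged from 0.13 to 0.69, Kcnk6 from -0.03 to 0.90, Kcne4 from 0.16 to 0.58 and Kcnj14 from -1.07 to -0.49, and none was called. Of the 4 genes furthest up and the 4 furthest down in letter G, all but Kcnj4 averaged under 4 CPM. Kcnd2 had 127 and 129 CPM in letter G and 113.5 and 112 CPM in letter F (log2 fold change 0.18, adjusted p 0.211, edgeR).

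Sodium-potassium pump genes were among those called between letters. In letter A against letter D, 5 of the 27 other genes of potassium currents were called higher by edgeR and 0 lower, against 0.7% and 0.257% of all genes. The pump's beta subunits Atp1b1 and Atp1b2 had log2 fold changes of 0.20 (adjusted p 0.0113, edgeR) and 0.23 (0.0284). Hcn2, a channel opened by hyperpolarisation, had 0.44 (0.00362). In letter G against letter F, 1 gene of the list was called higher and 0 lower, against 0.206% and 0.0578% of all genes. Letters and any batch, litter or dissection that they may mark cannot be told apart.

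**Figure D3:**
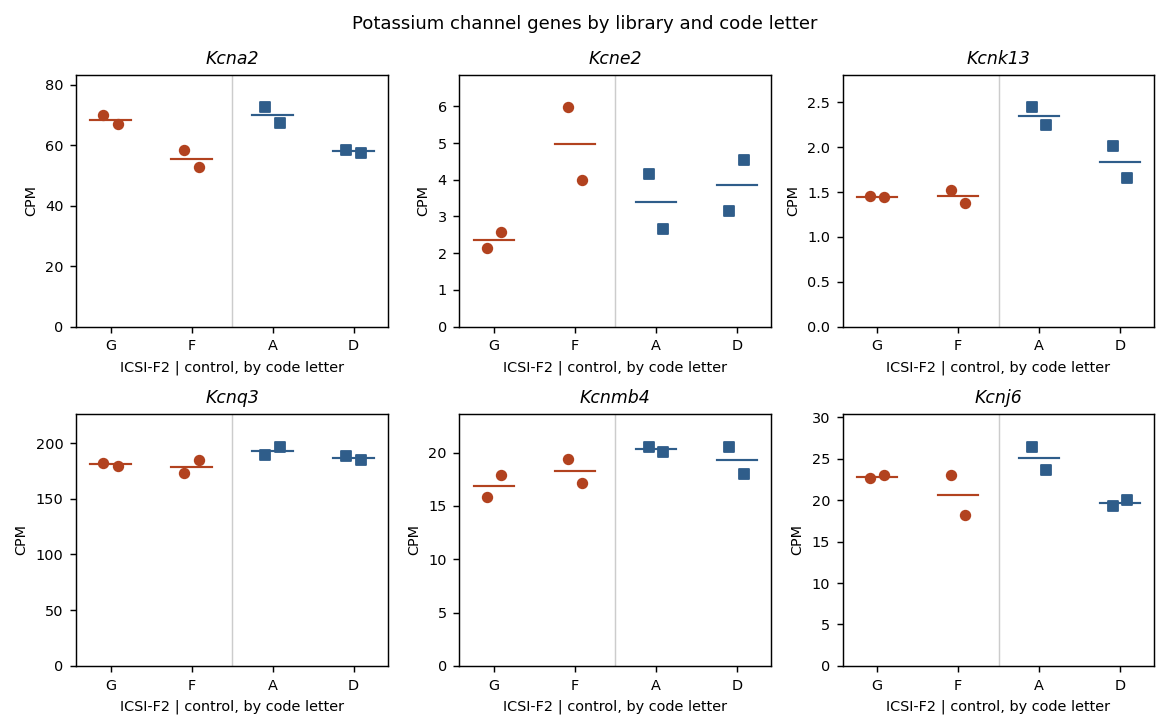
CPM of 6 channel genes in each library (points) with the mean of each code letter (lines), ICSI-F2 letters G and F left of control letters A and D. Kcna2 lies between 67.1 and 72.5 CPM in letters G and A and between 52.7 and 58.4 CPM in letters F and D, Kcne2 is lowest in letter G, and the 4 ICSI-F2 points of Kcnk13, at 1.38 to 1.52 CPM, lie below its control points.

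**Figure D4:**
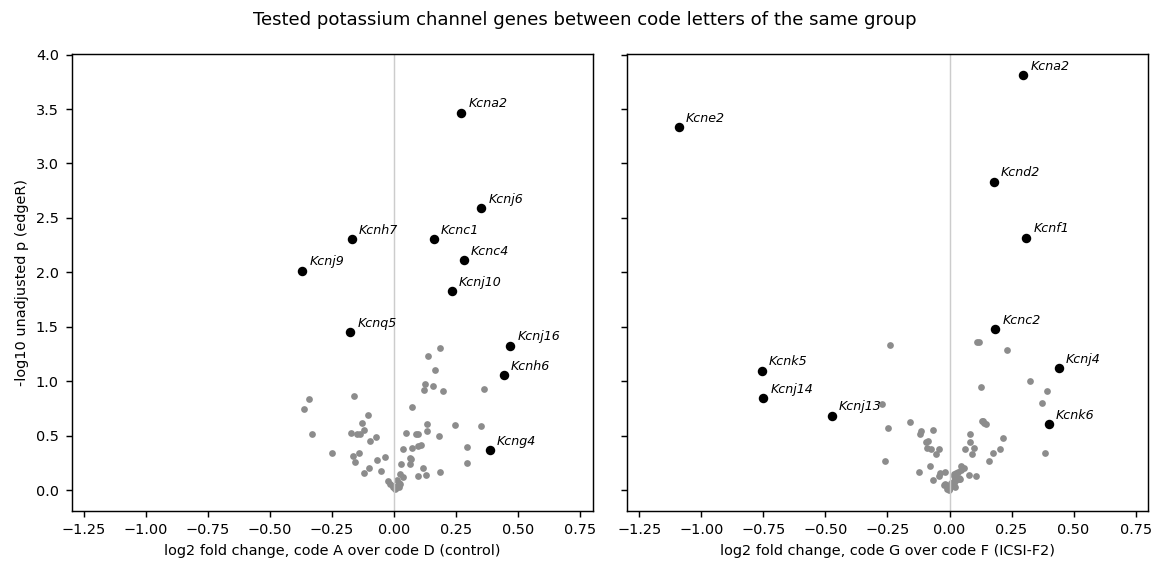
Log2 fold change against -log10 of the unadjusted edgeR p for the 76 tested channel genes, letter A over letter D at left and letter G over letter F at right, with black points for labelled genes. Kcna2 has the smallest p in both panels, at 0.27 and 0.30 on the log2 scale, and Kcne2 lies furthest left at -1.09; the labelled Kcnc2 and Kcnc4 were chosen after their values were seen.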

How the data were processed

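Per the labels, single-end RNA-seq libraries were made from brain RNA, with 1 kit named in the series text and another in the sample protocols. The authors processed reads with bcl2fastq 2.20, cutadapt 3.4, HISAT2 2.2.1 and HTSeq 2.0.2 on mm10, per the submitters' processing notes. They deposited whole-number counts for each gene and library, without normalization. The annotation release and strand setting of that counting were not given in the sources used here. Genes that overlap on opposite strands are therefore uncertain. Identifiers were looked up in GENCODE M21 (99.6% found), which gave exon lengths and positions.

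Counts were fitted over all genes with edgeR 4.0.16 in R 4.3.3 (filterByExpr, TMM scaling, robust quasi-likelihood F test, Benjamini-Hochberg adjustment, threshold 0.05). ICSI-F2 was tested against control with group as the only term, and letters inside each group in a fit of the 4 letters. CPM were counts per 1000000 of the TMM-scaled library total, and TMM factors lay between 0.989 and 1.01. DESeq2 1.42.0, limma 3.58.1, other scaling, no filter and leaving out libraries were alternatives. Intervals and floors cover counting error and the spread of these libraries only. No library was another of its group deposited again, since chi-square values between libraries of a group were 2.24 to 6.1 per gene, above sampling noise. Separate libraries from the same animal could also exceed that noise, so these values do not show separate animals. On simulated counts of 15565 genes, 200 of them changed, the ICSI-F2 against control test found 55.4% of those with a 1.25-fold change, 77.3% at 1.5-fold and 96.5% at 2-fold, and 7 of its 154 calls were false. For letter A against D these shares were 41.9%, 65.1% and 77%, with 16 false among 135 calls. For ICSI-F2 against control, the simulated counts took their spread within letters and held no difference between letters of a group. In the real data such differences were called for some genes, so the shares for that test may be too high.

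Members and lists were chosen with earlier results of these data known. Genes were named in the text by smallest p (12 genes), calls or the 4 most extreme fold changes each way between letters, the 3 highest per kb of a class, or a defining role; others are said to be chosen after their values were seen. Alternatives were recomputed for those whose fold changes the tests turn on. RefSeq promoters were matched for 67 of the 90 genes, under 80%, so no promoter measure was compared over the genes. Protein sequences, planned at first, were not used here. Some genes are not reported here by name, though counts and class sums include them.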

Additional observations from a re-analysis of the deposited data

Results flagged for a closer look

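Among 108 groups of 4 libraries, 5 groups stood out. They come from 54 named channel genes in each of the ICSI-F2 and control groups, and each of the 5 held a library whose gap to its nearest neighbour was too wide a share of the group's range (Dixon's criterion at 95%). Chance flags about 1 in 20 groups, or 5.4 of 108. Kcnn2 was 40.46 CPM in ICSI-F2 replicate 2, against 34.8 to 35.4 CPM in the other ICSI-F2 libraries. Kcnj6 was 18.24 CPM in the same library, against 22.65 to 23.0 CPM. Kcnj8 was 6.811 CPM in ICSI-F2 replicate 3, against 4.78 to 5.12 CPM. Kcna3 was 24.13 CPM in ICSI-F2 replicate 4, against 27.1 to 27.4 CPM. Kcnk10 was 107.8 CPM in control replicate 3, against 102 to 103 CPM in the other control libraries.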

How the results depend on the processing

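The count of 0 channel genes called between ICSI-F2 and control brains held under every alternative tried. Counts at an unadjusted p of 0.05 moved. Genes higher in ICSI-F2 brains numbered 0, and 1 with 1 mean per letter, limma-voom, no filter or without letter G, 2 with total library size and 3 without letter A, with 0 to 3 when each library was left out. Genes lower numbered 3, and 1 with DESeq2 or total library size, 0 without letter A and 6 without letter G, with 0 to 5 when each library was left out. In letter A against letter D, 1 gene was called higher, 0 with DESeq2 or total library size and 2 with no filter, Kcna2 and Kcnj6, with 0 to 1 when each library was left out. In letter G against letter F, 0 genes were called higher and 0 lower, and 1 of each with no filter or only the 4 libraries compared, with 0 to 1 of each when a library was left out. Calls over all genes moved too. For letter A against D they numbered 149 of 15565 genes, and 365 of 24101 with no filter. DESeq2 gave 69 and total library size 126 of 15565. For letter G against F they numbered 41 of 15565, 97 of 24101 with no filter and 69 of 15502 with only the 4 libraries. The log2 fold change of Kcnk6 in letter G against letter F, 0.40, ranged from -0.030 to 0.903 when each library was left out, the lowest without ICSI-F2 replicate 1. The causes were not tested. Named genes otherwise kept their direction under the alternatives computed.

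No paired analysis was possible because replicate numbers follow the order of deposition and each letter lies inside 1 group. With 4 libraries a group, the median standard error of a channel gene's log2 fold change was 0.08 and the largest 0.36, so small changes of low genes were not detectable at this depth.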
